A study of Mus musculus with 12 samples.

Results

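Macrophages divide L-arginine between a pair of fates. Inducible nitric oxide synthase turns it into nitric oxide and citrulline, whereas hydrolysis turns it into urea and ornithine, from which ornithine decarboxylase starts the synthesis of putrescine, spermidine and spermine. In mouse macrophages, IFNγ and bacterial lipopolysaccharide (LPS) are the classical inducers of the first route and IL-4 of the second, and citrulline can be recycled to arginine by argininosuccinate synthase and argininosuccinate lyase.

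The expression of 8 genes of these routes was described among the 47937 genes of the RNA sequencing count matrix. They were Nos2, which encodes inducible nitric oxide synthase, and Gch1, whose product GTP cyclohydrolase 1 opens the synthesis of its cofactor tetrahydrobiopterin. They also included the arginine transporter gene Slc7a2, the recycling genes Ass1 and Asl, and the polyamine genes Odc1, Srm and Sat1. All 8 were found by matching Ensembl identifiers to mouse gene symbols, and all 8 passed the filter on low counts. Nos2 passed through the stimulated libraries only, since it had 0 reads in the 6 unstimulated ones, so a difference for it was bound to appear.

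The cells were bone marrow-derived macrophages of C57BL/6 mice aged 6 to 8 weeks, grown with CSF-1, and the labels give no sex. Resting macrophages (M0) received no stimulus, and the libraries called IFNγ + LPS came from cells given 50 ng/ml IFNγ and 20 ng/ml LPS for 18 h. Both states were also studied with 50 μM T863 for 18 h. T863 is an inhibitor of DGAT1 (DGAT1i), the enzyme that makes triacylglycerol from diacylglycerol. The titles of the M0 libraries without DGAT1i name no time. Each of the 4 groups held 3 libraries, with 4996014 to 6621671 reads each, and the labels do not say whether the 3 came from separate mice, so that p-values measure the spread between these libraries, which may be technical. The comparisons were IFNγ + LPS against M0, DGAT1i against no DGAT1i in each state, and the difference between these inhibitor responses. In 2 of the 3 libraries of M0 with DGAT1i, a free-text label names the compound with a neighbouring number, T864 or T865, while the source label of all 3 names T863.

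The labelled cell type was checked against marker genes. All 8 macrophage markers (among them Adgre1, Csf1r and Cd68) had reads in every group, at a summed level per library of 13131 to 14358 CPM (reads relative to the TMM-scaled library size) in M0, 16054 to 18075 CPM in M0 with DGAT1i, 8323 to 8980 CPM in IFNγ + LPS and 7923 to 8891 CPM in IFNγ + LPS with DGAT1i. Lyz2 was the most abundant, at a mean of 9641 CPM in M0 and 2956 CPM in IFNγ + LPS, and of all 8 with IFNγ + LPS 3 rose and 5 fell. The 3 erythroid markers had 0 reads in all libraries, and lymphoid markers summed to at most 0.360 CPM and stromal markers to at most 2.11 CPM. Endothelial markers summed to 16.1 to 20.9 CPM in IFNγ + LPS against 1.31 to 3.06 CPM in M0, and dendritic markers to at most 6.12 CPM in any library. In IFNγ + LPS with DGAT1i the endothelial sum was 7.82 to 12.6 CPM. Neutrophil and precursor markers summed to 15.4 to 26.0 CPM in IFNγ + LPS and to 63.2 to 81.5 CPM in IFNγ + LPS with DGAT1i. All 4 that could be tested rose with DGAT1i there. The sum was 31.7 to 38.8 CPM in M0 and 23.0 to 29.4 CPM in M0 with DGAT1i. With IFNγ + LPS against M0, 2 of the 4 fell, beside 36.2% of all genes tested. Ly6g, a defining neutrophil gene, had 0 reads in all 12 libraries, and Elane had 0 reads in both stimulated groups. The part of these cells or genes in the results that follow was not tested. In bulk RNA, fewer cells of a type and less RNA per cell cannot be told apart.

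The comparison of IFNγ + LPS with M0 asked which genes of the route change with inflammatory activation. Nos2, Ass1, Slc7a2 and Gch1 rose, as did Sat1 with TMM scaling, Srm fell, and Asl and Odc1 did not pass the test. The call was an adjusted p under 0.05 in the quasi-likelihood test of edgeR, adjusted by the Benjamini-Hochberg method over all genes. By it, 6 of the 8 members tested were called, 5 higher and 1 lower, with Nos2, which was bound to differ, among the 5. Of all 11760 genes tested, 73.3% were called in this comparison, 37.1% higher and 36.2% lower, so the count itself says little about these genes. The library values of 6 members did not overlap between the groups, beside 75.4% of all genes. The median log2 fold change of the 8 members was 1.11, with Nos2 at its lower bound, beside 0.01 over all genes tested.

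These counts depended on how libraries were scaled. Scaling by library size alone, in place of TMM, shifted the median over all genes from 0.01 to -0.46 (log2) in this comparison and gave 4 members higher and 3 lower, beside 19.9% of all genes higher and 59.5% lower under the same scaling. Under it Sat1, Odc1 and Asl changed direction, whereas Nos2, Ass1, Slc7a2, Gch1 and Srm did not.

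Nos2 (ENSMUSG00000020826.7, chromosome 11 from 78920787 to 78960254 on GRCm38) had 0 reads in each of the 3 M0 libraries. In IFNγ + LPS it had 23806, 27393 and 23554 reads, or 5012, 4931 and 4412 CPM, and took 0.383 to 0.432% of all reads of a library. It was therefore at least 34366-fold higher, against a floor of 3 reads over the M0 group. This bound is 15.07 on the log2 scale, and it became 14.45 without M0 replicate 2, since the same floor then stood over fewer reads. In M0 with DGAT1i it also had 0 reads in all 3 libraries, which allows a mean level of up to 0.135 CPM over the group.

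**Figure D1:**
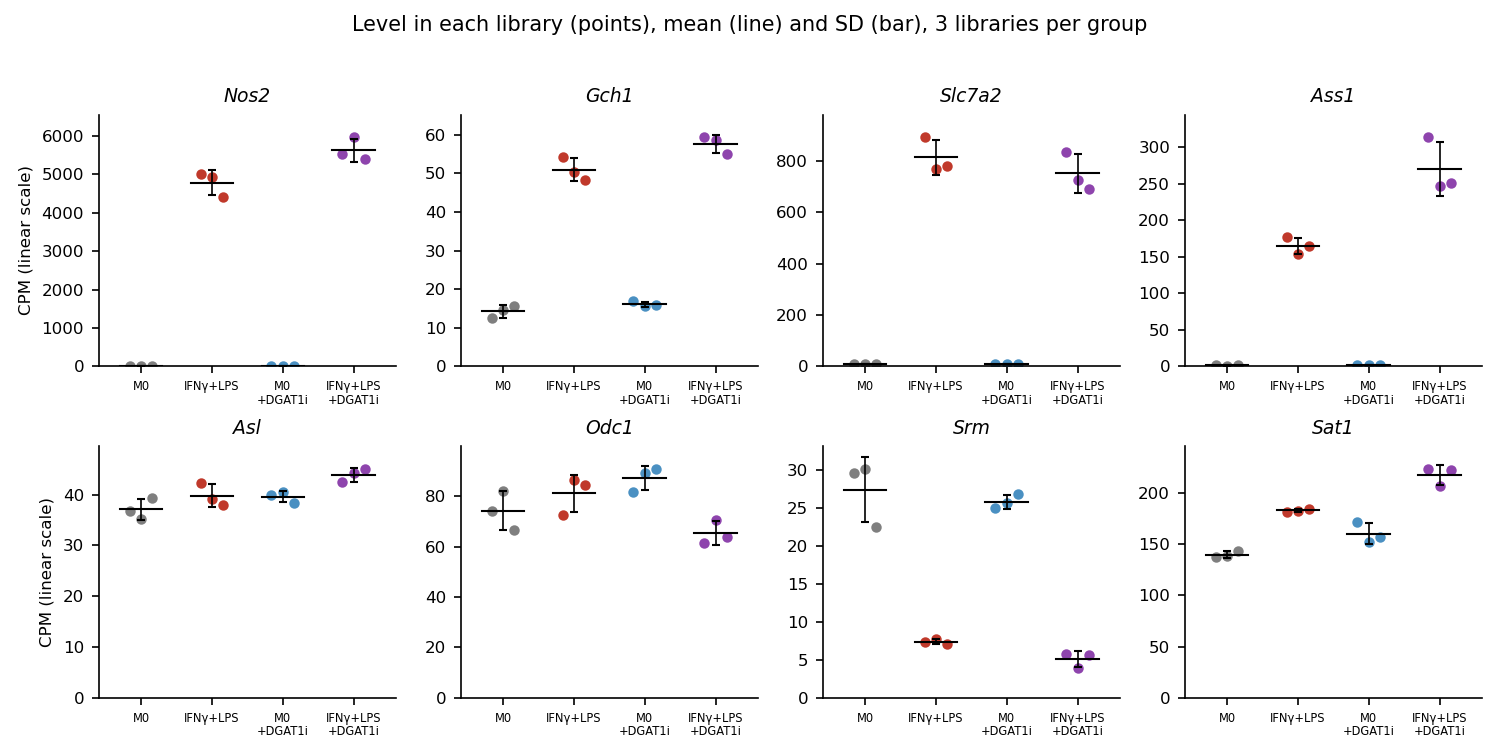
Level of each of the 8 genes in CPM (linear axis from 0, a separate scale per panel) in the 3 libraries of each group (points), with the mean (line) and SD (bar). Nos2, Slc7a2 and Ass1 are close to 0 without IFNγ + LPS, and Srm is lower in both stimulated groups; the rise of Sat1 with IFNγ + LPS is seen with TMM scaling and is reversed in direction with scaling by library size alone.

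Slc7a2 (ENSMUSG00000031596.15, chromosome 8 from 40862396 to 40922308) encodes CAT2, a cationic amino acid transporter that carries arginine into the cell. Its levels were 10.0, 8.39 and 10.4 CPM in M0 and 890.4, 767 and 780.2 CPM in IFNγ + LPS. The groups were far apart, by 6.40 on the log2 scale (standard error, SE, of 0.09, edgeR adjusted p = 1.17e-39).

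Ass1 (ENSMUSG00000076441.9, chromosome 2 from 31470207 to 31520672) encodes argininosuccinate synthase, which joins citrulline and aspartate. It went from 1.31, 1.20 and 1.53 CPM in M0, which rest on 9, 9 and 11 reads, to 177, 154 and 164 CPM. The log2 fold change was 6.92 (SE 0.15, edgeR adjusted p = 5.88e-32), or 121-fold. A related gene, Gm5424, shares 73.1% of the longest Ass1 transcript and was assigned 2 reads in M0 and 63 in IFNγ + LPS, beside 2570 reads of Ass1. How reads that fit both genes were counted is not given in the sources used here.

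Asl (ENSMUSG00000025533.15, chromosome 5 from 130011258 to 130029247), whose product completes the recycling step by releasing arginine and fumarate, did not follow Ass1. It had 36.8, 35.3 and 39.4 CPM in M0 and 42.3, 39.1 and 38.0 CPM in IFNγ + LPS, and the groups overlapped. The log2 fold change was 0.10 with a 95% interval from -0.08 to 0.27 (edgeR adjusted p = 0.317), and -0.37 with scaling by library size alone. Within each library, which needs no scaling between libraries, the reads of Ass1 for each read of Asl went from 0.0340 to 0.0389 in M0 to 3.94 to 4.32 in IFNγ + LPS. The log2 ratio differed by 6.84 between the groups (exact two-sided permutation test, p = 0.1, the smallest that 3 against 3 libraries allow).

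Gch1 (ENSMUSG00000037580.9, chromosome 14 from 47153895 to 47189413) had 12.5, 14.7 and 15.6 CPM in M0 and 54.1, 50.4 and 48.1 CPM in IFNγ + LPS. It rose 3.56-fold, or 1.83 on the log2 scale (SE 0.10, edgeR adjusted p = 3.15e-23). The range of 48.1 to 54.1 CPM lies wholly above that of M0.

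The promoters of Ass1 and Gch1 are shown. Both genes rose, and each has a promoter in the RefSeq table used (GRCm38.p6), which held 4 of the 8 members. It also held Sat1, which rose with TMM scaling but not by library size alone, and Odc1, which did not pass the test. The windows of Sat1 and Odc1 are not shown. Each line gives the 250 bases before the RefSeq start, 5′ to 3′ on the gene's strand. The Ass1 window is chr2:31470020-31470269 on the plus strand, and the count annotation places the first base of the gene inside it. The Gch1 window is chr14:47189414-47189663 on the minus strand. Capitals mark matches to the motifs searched.
Ass1: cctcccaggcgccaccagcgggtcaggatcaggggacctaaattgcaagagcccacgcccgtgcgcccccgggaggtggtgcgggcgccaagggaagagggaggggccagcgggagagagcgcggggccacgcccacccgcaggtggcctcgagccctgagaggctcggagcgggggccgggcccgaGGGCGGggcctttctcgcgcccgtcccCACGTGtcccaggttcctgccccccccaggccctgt
Gch1: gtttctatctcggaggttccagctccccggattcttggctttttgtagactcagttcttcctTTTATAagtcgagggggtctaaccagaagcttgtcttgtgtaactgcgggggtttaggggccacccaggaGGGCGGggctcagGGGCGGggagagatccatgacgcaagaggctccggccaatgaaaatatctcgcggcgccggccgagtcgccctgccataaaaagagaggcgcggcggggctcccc

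A set of 9 motifs were searched on both strands in these windows and in all 32851 windows of the table. The Ass1 window holds an E-box (CACGTG), present in 6.0% of all windows, that begins 36 bases before the RefSeq start. It also holds a GC box (GGGCGG), present in 32.7% of windows, and the Gch1 window holds a pair of them. By the count annotation, which starts Ass1 at base 31470207, both matches in the Ass1 window lie within the gene. The Gch1 window also holds TATAAA on the opposite strand (12.4% of windows). No match to a kappaB site (GGG and TCC with any 4 bases between them, 16.5% of windows), a GAS (TTCNNNGAA, 7.0%) or an ISRE (a pair of GAAA with any 2 bases between them, 3.0%) lies in either window. The same holds for AP-1 (TGANTCA, 6.7%), CRE (TGACGTCA, 1.5%) and C/EBP-ATF (TGATGNAA, 3.5%) letters. These matches describe letters and not binding, and the absence of a match says only that the letters are not in the window. In the Odc1 window a kappaB match lies 159 bases before the start, and GC boxes lie in the Odc1 and Sat1 windows.

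As a check of the IL-4 type of activation, a list of 6 genes summed to 1434 to 1735 CPM in M0 and to 39.0 to 44.8 CPM in IFNγ + LPS. Most of this sum was Mrc1, the mannose receptor gene, at 1388 to 1691 CPM in M0 and 35.2 to 40.1 CPM in IFNγ + LPS, whereas Chil3 stood at a mean of 5.42 and 1.91 CPM. Retnla, a defining gene of that state, had 0 reads in all groups. All 4 genes of the list that were tested fell. In IFNγ + LPS with DGAT1i the sum was 49.3 to 62.0 CPM. With DGAT1i in IFNγ + LPS, 2 of the 4 were called higher, beside 13.5% of all genes tested. The part of this in the results on DGAT1i was not tested.

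Polyamine genes moved in different directions. Srm (ENSMUSG00000006442.10, chromosome 4 from 148591503 to 148594993), whose product spermidine synthase makes spermidine from putrescine, had 29.5, 30.1 and 22.4 CPM in M0 and 7.37, 7.74 and 7.12 CPM in IFNγ + LPS. It fell 3.68-fold, or -1.88 on the log2 scale (SE 0.15, edgeR adjusted p = 2.30e-17), and the groups did not overlap.

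Sat1 (ENSMUSG00000025283.15, chromosome X from 155213132 to 155216449) encodes spermidine/spermine acetyltransferase, which marks polyamines for export and breakdown. Its level was 137.6, 138.0 and 143.7 CPM in M0 and 181.7, 182.4 and 184.7 CPM in IFNγ + LPS. It rose with TMM scaling, with a log2 fold change of 0.39 (SE 0.06, edgeR adjusted p = 2.08e-08), and stood at -0.08 (adjusted p = 0.184) with scaling by library size alone. The ratio of Srm to Sat1 within libraries, which needs no such scaling, was lower by 2.26 on the log2 scale and did not overlap (exact two-sided permutation test, p = 0.1).

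Odc1 (ENSMUSG00000011179.7, chromosome 12 from 17544794 to 17551505), the rate-limiting enzyme of polyamine synthesis, had 74.1, 82.0 and 66.6 CPM in M0 and 72.6, 86.4 and 84.3 CPM in IFNγ + LPS. The groups overlapped, and the log2 fold change of 0.13 (95% interval -0.02 to 0.28) did not pass the test (edgeR adjusted p = 0.116). It passed upward without M0 replicate 2 (log2 fold change 0.21) or IFNγ + LPS replicate 1 (0.21), and passed downward with scaling by library size alone (-0.34, adjusted p = 7.49e-05). Several processed copies share its sequence, such as Gm7993 with 62.6% of the longest transcript, and the 4 that share over 30% of it held at most 7 reads each in a group. AW146154, which shares 22.6%, had 139 reads in resting and 85 in stimulated libraries, or 141 and 66 when the inhibitor was added to these states. How reads that fit both genes were counted is not given in the sources used here.

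The members were ranked by level only as CPM per kilobase of the longest annotated transcript. In M0 the order began with Sat1 at 103, Odc1 at 33.6, Srm at 20.4 and Asl at 15.4 CPM per kilobase, and all neighbours in this order were apart down to Nos2 at 0 reads. In IFNγ + LPS, Nos2 led at 1142 CPM per kilobase, followed by Sat1 at 135 and then by Slc7a2 at 103 and Ass1 at 97.2, whose library values overlapped. Srm went from place 3 to place 8, at 5.54 CPM per kilobase, the last of the 8.

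The genes whose pattern over the 12 libraries was most like that of Nos2 were sought among all genes whose average log2 CPM was 2 or more. The measure was the root mean square difference of log2 CPM after centring each gene. Nearest was Acod1, which encodes the itaconate-forming enzyme, at 0.62, then Cxcl9, a chemokine induced by IFNγ, at 0.68, and Iigp1, an interferon-inducible GTPase, at 0.91. Acod1 had 0.0888 CPM in M0 and 5273 CPM in IFNγ + LPS. Since Nos2 had 0 reads in the unstimulated libraries, the measure mostly reflects the step between the states. With DGAT1i in IFNγ + LPS, Acod1 stood at 5279 CPM. Cxcl9 went from 2584 to 1819 CPM with the inhibitor and Iigp1 from 3012 to 3338 CPM.

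The next comparison asked which genes of the route differ with DGAT1i in inflammatory macrophages. The study does not exclude off-target effects of T863, and its culture methods name no solvent control. In IFNγ + LPS, Nos2, Ass1 and Sat1 were higher with DGAT1i than without it, and Odc1 was lower. Of the 8 members tested, 4 were called, 3 higher and 1 lower, beside 29.8% of all genes tested (13.5% higher and 16.3% lower). The median log2 fold change of the members was 0.16, beside -0.01 over all genes. Library values of 7 of the 8 did not overlap between the groups, beside 39.7% of all genes.

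Ass1 had the largest called change among the members. Its levels were 177, 154 and 164 CPM without DGAT1i and 313.5, 247 and 251.5 CPM with it. The log2 fold change was 0.72 (SE 0.07, edgeR adjusted p = 1.69e-10), or 1.64-fold, and every library with the inhibitor was above every library without it. The first library with DGAT1i was the highest.

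Asl stood at 42.4, 44.2 and 45.1 CPM with DGAT1i, with a log2 fold change of 0.14 (95% interval -0.04 to 0.33, edgeR adjusted p = 0.254). The reads of Ass1 for each read of Asl went to 7.39, 5.58 and 5.58 within the libraries with DGAT1i, all above the 3.94 to 4.32 without it. The log2 ratio was higher by 0.57 (exact two-sided permutation test, p = 0.1, the smallest possible).

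Nos2 had 5532, 5961 and 5392 CPM with DGAT1i, against 4412 to 5012 CPM without it. The lowest library with the inhibitor lay above the highest without it, and the log2 fold change was 0.23 (SE 0.05, edgeR adjusted p = 7.13e-04), or 1.18-fold. It was called in each alternative analysis listed for it.

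Gch1 had 59.3, 58.6 and 54.9 CPM with DGAT1i, above the 48.1 to 54.1 CPM without it. The log2 fold change of 0.18 (95% interval 0.01 to 0.36) did not pass the adjusted test (edgeR adjusted p = 0.113). The log2 ratio of Gch1 to Nos2 within libraries differed by -0.06 and overlapped between the groups (exact two-sided permutation test, p = 0.2).

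Slc7a2 had 835, 725 and 690.4 CPM with DGAT1i, overlapping the 767 to 890.4 CPM without it. The log2 fold change was -0.11 (95% interval -0.23 to 0.01, edgeR adjusted p = 0.153). Without replicate 1 of IFNγ + LPS with DGAT1i, the highest of its group, the value became -0.20 and passed (adjusted p = 0.00636). It also passed when low counts were not filtered (-0.15, adjusted p = 0.0499).

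Odc1 fell with DGAT1i from 72.6, 86.4 and 84.3 CPM to 61.3, 70.7 and 64.0 CPM. The groups were apart, by little, and the log2 fold change was -0.32 (SE 0.08, edgeR adjusted p = 0.00218). Sat1 rose to 223.3, 206.5 and 222.7 CPM, from at most 184.7 CPM without DGAT1i. This was a log2 change of 0.25 (SE 0.06, edgeR adjusted p = 4.45e-04).

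The ratio of Odc1 to Sat1 within libraries was 0.275, 0.342 and 0.287 with DGAT1i and 0.400, 0.474 and 0.456 without it. The log2 ratio was lower by 0.56, a log2 difference of -0.56 (exact two-sided permutation test, p = 0.1), and the groups were apart. Srm had 5.76, 3.96 and 5.60 CPM with DGAT1i, or 28, 19 and 24 reads, against 7.12 to 7.74 CPM. The log2 fold change of -0.54 (95% interval -0.98 to -0.10) did not pass (edgeR adjusted p = 0.0587), and it passed without M0 replicate 3, a library of neither group (adjusted p = 0.0443).

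**Figure D2:**
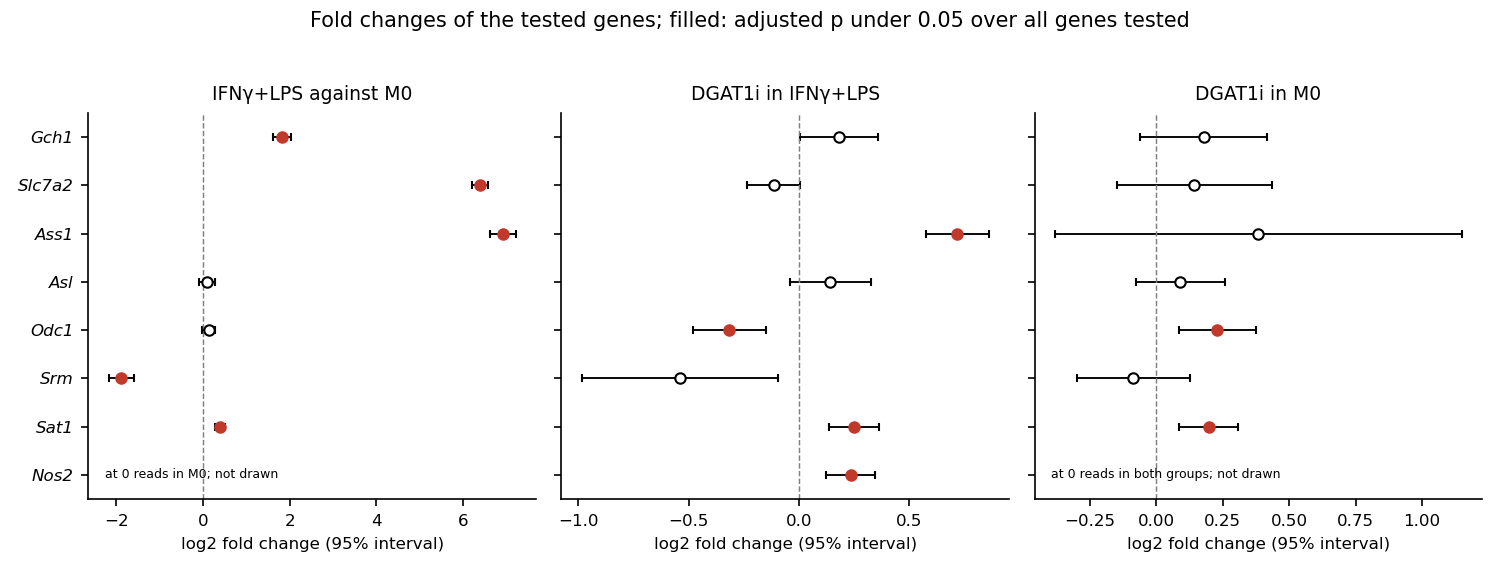
Log2 fold changes of the 8 genes tested with their 95% intervals, for IFNγ + LPS against M0 and for DGAT1i in each state (a separate linear axis per panel; filled points have an adjusted p under 0.05 in edgeR's quasi-likelihood test). With IFNγ + LPS, Ass1 and Slc7a2 lie at 6.92 and 6.40 and Srm at -1.88; Sat1, Odc1 and Asl lie near 0 and change direction there when libraries are scaled by size alone. Ass1 has the highest value with DGAT1i in IFNγ + LPS, at 0.72. Nos2, at 0 reads in M0 with and without DGAT1i, is drawn only in the panel for DGAT1i in IFNγ + LPS.

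With these changes the order of levels per length shifted. In IFNγ + LPS with DGAT1i, Nos2 stood at 1343 CPM per kilobase, and Sat1 at 161 and Ass1 at 159.5 overlapped. Slc7a2 followed at 94.9 CPM per kilobase, apart from Ass1, which it had overlapped without the inhibitor. Odc1, Asl and Gch1 came next at 29.6, 18.2 and 16.4 CPM per kilobase.

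A further comparison asked what DGAT1i changes in resting macrophages. Of the 7 members that had reads, 2 were called, both higher, beside 24.4% of all genes tested (11.0% higher and 13.4% lower). The libraries of 2, Gch1 and Sat1, did not overlap, beside 37.8% of all genes. The median log2 fold change of the 7 was 0.18, beside 0.00 over all genes. Sat1 had 171.9, 151.9 and 156.9 CPM with DGAT1i, above the 137.6 to 143.7 CPM of M0 (log2 fold change 0.20, SE 0.06, edgeR adjusted p = 0.00543). Odc1 had 81.8, 89.0 and 90.8 CPM, the lowest of which lay just under the highest M0 library at 82.0 CPM (log2 fold change 0.23, SE 0.07, edgeR adjusted p = 0.0130).

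Both calls in resting macrophages changed with single libraries. Sat1 was not called without replicate 1 of M0 with DGAT1i (adjusted p = 0.0923), and Odc1 was not called without M0 replicate 3 or without replicate 2 or 3 of M0 with DGAT1i (adjusted p = 0.145, 0.0568 and 0.0706), nor by DESeq2 (0.122). Neither was called with scaling by library size alone. Ass1 had 10, 15 and 14 reads with DGAT1i against 9, 9 and 11, and its log2 fold change of 0.38 had a 95% interval from -0.38 to 1.15 (edgeR adjusted p = 0.514). Asl, Slc7a2, Gch1 and Srm had log2 fold changes of 0.09, 0.14, 0.18 and -0.09 and did not pass the test.

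With DGAT1i present, Nos2, Ass1, Slc7a2 and Gch1 rose with IFNγ + LPS, as did Sat1 with TMM scaling, and Srm and Odc1 fell. Comparing IFNγ + LPS with M0, both with DGAT1i, 7 of the 8 members were called, 5 higher (Nos2 again among them) and 2 lower, beside 70.6% of all genes tested (35.3% in each direction). All 8 had libraries that did not overlap, beside 72.5% of all genes. With scaling by library size alone, 4 were higher and 3 lower, beside 19.8% and 57.8% of all genes. Nos2 was at least 41616-fold higher against the floor, a bound of 15.34 on the log2 scale that became 14.74 without replicate 1 or without replicate 3 of M0 with DGAT1i. Ass1, Slc7a2 and Gch1 rose by 7.25, 6.14 and 1.83 on the log2 scale. Srm fell by 2.33 on the log2 scale. Odc1 fell by 0.42 on the log2 scale with DGAT1i (edgeR adjusted p = 5.61e-06), where it had not passed without it.

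Whether the response to DGAT1i differed between the states was tested directly, as an interaction. Of the 7 members with reads in both states, Odc1 alone passed, beside 18.5% of all genes tested (8.66% higher and 9.80% lower). Its log2 response was 0.23 in M0 and -0.32 in IFNγ + LPS, a difference of -0.55 (SE 0.11, edgeR adjusted p = 1.56e-04). The difference stayed past the threshold in each alternative analysis. For Ass1 the difference was 0.33, with a 95% interval from -0.47 to 1.14 (adjusted p = 0.621), so that the low counts of Ass1 in M0 leave a wide range. For Srm it was -0.45 (adjusted p = 0.205), for Slc7a2 -0.26 (adjusted p = 0.272), and for Sat1, Gch1 and Asl between 0.00 and 0.05.

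**Figure D3:**
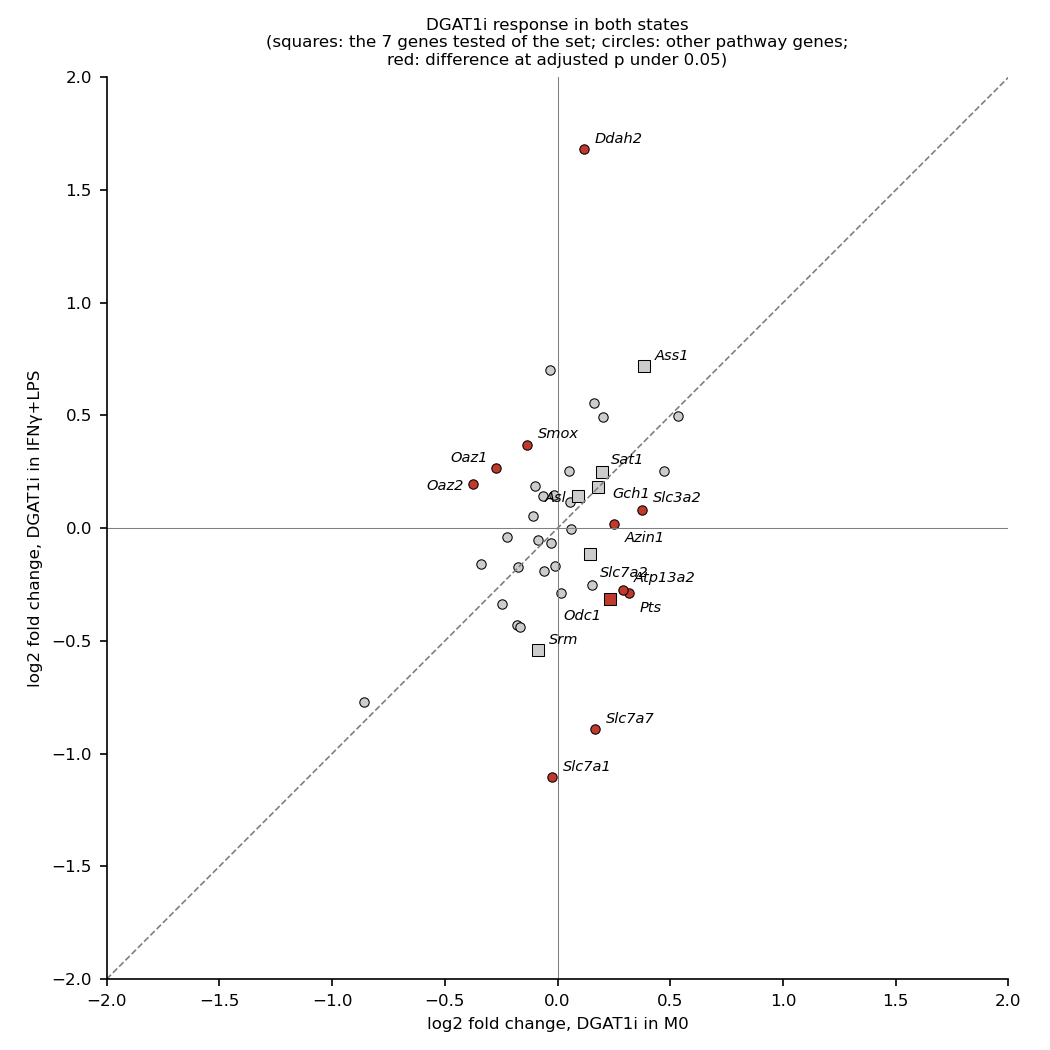
Log2 fold change with DGAT1i in IFNγ + LPS (vertical axis) against that in M0 (horizontal axis) for the 7 members with reads in both states (squares) and 35 other genes of the pathways (circles); the dashed line marks equal responses. Red points had an adjusted p under 0.05 for the difference; Odc1 lies at 0.23 and -0.32, Slc7a1 at -0.02 and -1.10 and Ddah2 at 0.12 and 1.68.

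Other genes of the routes were taken from 4 lists of 49 genes in all, chosen by function, of which 35 passed the filter on low counts. With IFNγ + LPS, 32 of the 35 were called, 9 higher and 23 lower, beside 73.3% of all genes tested, with a median log2 fold change of -0.61. The 9 included Slc7a3, which passed the filter only through the stimulated libraries. With scaling by library size alone, 2 were higher and 27 lower, beside 19.9% and 59.5% of all genes. With DGAT1i in both groups, 31 were called, 6 higher (Slc7a3 again among them) and 25 lower, beside 70.6% of all genes. With DGAT1i in IFNγ + LPS, 12 of the 35 (34.3%) were called, 4 higher and 8 lower, with a median of 0.00, a share near the 29.8% of all genes. With DGAT1i in M0 11 (31.4%) were called, 5 higher and 6 lower, with a median of -0.02, beside 24.4% of all genes. The difference of the responses was called for 10 (28.6%), 4 higher and 6 lower, beside 18.5% of all genes.

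The list of nitric oxide synthases, cofactor and regulators held 13 genes, of which 8 were tested. Nos1, the neuronal synthase, and Nos3, the endothelial synthase, did not pass the filter on low counts. With IFNγ + LPS 1 of the 8 rose and 6 fell, or 87.5% called beside 73.3% of all genes tested (36.2% lower). Qdpr and Pcbd2, whose products take part in the regeneration of tetrahydrobiopterin, fell from 61.3 to 25.7 CPM (log2 fold change -1.26) and from 13.4 to 7.02 CPM (-0.94). Nosip, which encodes an interactor of nitric oxide synthases, was the gene that rose, from 24.2 to 38.8 CPM (0.68), a call lost with scaling by library size alone, and with DGAT1i in both groups it rose from 20.7 to 38.0 CPM (0.86). Nostrin, which encodes a protein that traffics endothelial nitric oxide synthase, fell from 21.4 to 4.09 CPM (-2.39).

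Ddah2 encodes a member of the family that breaks down methylated arginines, which are natural inhibitors of nitric oxide synthases. The M0 libraries had 60, 59 and 54 reads of it, those of IFNγ + LPS 1, 9 and 8, and those with DGAT1i added 19, 16 and 17. It fell with IFNγ + LPS (log2 fold change -2.78, edgeR adjusted p = 5.38e-12) and was higher with DGAT1i in IFNγ + LPS (1.68, SE 0.38, adjusted p = 4.48e-04). The first IFNγ + LPS library, with 1 read, lay far under the other two. Qdpr fell further with DGAT1i, to 19.1 CPM (log2 fold change -0.43, adjusted p = 0.00607).

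Of the list of arginine transport and urea cycle, 6 of 11 genes were tested. Cps1, Otc and Nags, which complete the hepatic urea cycle, had 0 reads, and Slc25a2 and Slc25a29, with 2 to 20 reads per group, did not pass the filter on low counts. With IFNγ + LPS, 3 rose and 2 fell, or 83.3% called, a share near the 73.3% of all genes tested. Of the 3, Slc7a1 turned with scaling by library size alone. Slc7a3 had 0 to 5 reads per library in M0 and 9 to 14 in IFNγ + LPS. It passed the filter on low counts only through the stimulated libraries, so its direction was set in advance. Slc3a2, the heavy chain that pairs with several amino acid transporters, rose from 197 to 633.5 CPM (log2 fold change 1.69, SE 0.05, edgeR adjusted p = 1.82e-34). Slc25a15, the mitochondrial ornithine carrier, and Slc7a6 fell, with log2 fold changes of -1.46 and -1.23.

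Slc7a1 encodes CAT1, the constitutive arginine transporter and paralog of the Slc7a2 product. Its levels were 54.8, 53.8 and 45.7 CPM in M0, 59.8, 62.6 and 60.5 CPM in IFNγ + LPS, and 29.4, 29.4 and 26.1 CPM in IFNγ + LPS with DGAT1i. It fell with DGAT1i in IFNγ + LPS (log2 fold change -1.10, SE 0.10, edgeR adjusted p = 6.87e-14), a 2.15-fold decrease, with the groups far apart. In M0 its response was -0.02 (adjusted p = 0.876). The call with IFNγ + LPS against M0 (log2 fold change 0.25) was lost without M0 replicate 3 and by DESeq2, and its direction turned with scaling by library size alone.

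Slc7a7, the y+LAT1 light chain that exchanges cationic for neutral amino acids together with the Slc3a2 product, had 15.2, 16.6 and 16.5 CPM in IFNγ + LPS and 11.3, 6.88 and 7.71 CPM with DGAT1i. It fell with DGAT1i (log2 fold change -0.89, SE 0.16, edgeR adjusted p = 2.15e-05). Slc3a2 was at 670.3 CPM with DGAT1i in IFNγ + LPS and did not pass the test there (0.08, adjusted p = 0.255), but rose in M0 from 197 to 255 CPM (0.38, adjusted p = 1.74e-07). Of the 6 genes of this list, 2 (33.3%) fell and none rose with DGAT1i in IFNγ + LPS, a share near the 29.8% of all genes. The responses of 3 differed between the states, beside 18.5% of all genes.

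**Figure D4:**
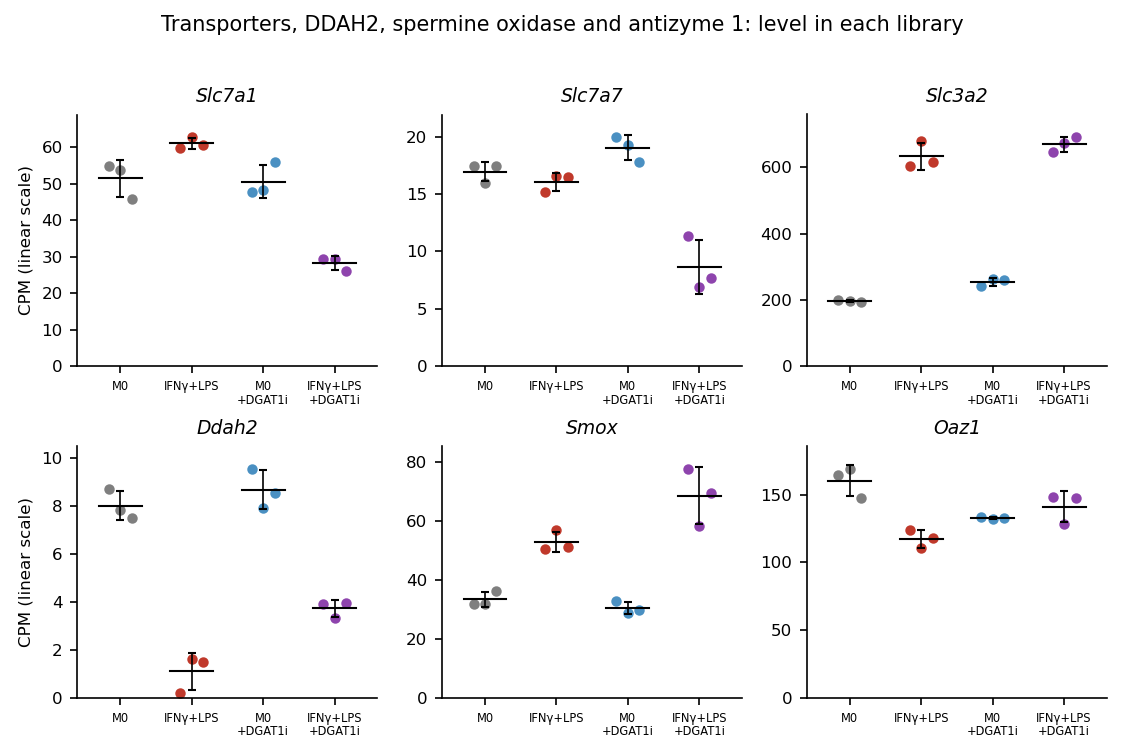
Levels of 6 other genes of the pathways in CPM (linear axis from 0, a separate scale per panel) in the 3 libraries of each group (points), with the mean (line) and SD (bar). Slc7a1 and Slc7a7 are lower in IFNγ + LPS with DGAT1i than in the other 3 groups, at 26.1 to 29.4 and 6.88 to 11.3 CPM, while Ddah2 is lowest in IFNγ + LPS without DGAT1i.

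Of the list of ornithine, proline and creatine, 8 of 10 genes were tested, and 7 fell with IFNγ + LPS while none rose, or 87.5% called beside 73.3% of all genes tested (36.2% lower). Oat, which interconverts ornithine and glutamate semialdehyde, fell from 103 to 41.7 CPM (log2 fold change -1.30), and Prodh, proline dehydrogenase, from 9.49 to 1.86 CPM (-2.34). Gatm and Gamt, the pair of enzymes of creatine synthesis from arginine, fell with log2 fold changes of -0.84 and -2.82. DGAT1i lowered Gatm in both states, from 36.0 to 21.0 CPM in IFNγ + LPS (-0.77, adjusted p = 8.95e-08) and from 64.4 to 35.5 CPM in M0 (-0.86, adjusted p = 4.40e-13, edgeR's quasi-likelihood test). Oat was also lower with DGAT1i, by -0.34 in IFNγ + LPS and -0.25 in M0. Gamt, at 2.82 CPM in IFNγ + LPS and 4.57 CPM with DGAT1i, was called higher (0.70, adjusted p = 0.0414), a call lost in 8 alternative analyses. No gene of this list differed in its response between the states at the adjusted threshold.

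Of the list of polyamine synthesis, turnover and use, 13 of 15 genes were tested, and all 13 were called with IFNγ + LPS, 5 higher and 8 lower, beside 73.3% of all genes tested. None of the 5 was called higher with scaling by library size alone, under which Atp13a2, Azin1 and Eif5a changed direction and Dhps and Smox lost their calls. Amd1, whose product supplies the aminopropyl groups, fell from 35.8 to 19.5 CPM (log2 fold change -0.87). Mtap, which salvages the by-product of both aminopropyl transfers, fell from 40.3 to 15.9 CPM (-1.34), and Paox, a polyamine oxidase, from 10.8 to 4.22 CPM (-1.35). Atp13a3, a polyamine transporter of the P5B type, fell from 132 to 39.1 CPM (-1.76).

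DGAT1i in IFNγ + LPS moved 5 of these 13 genes, 2 higher and 3 lower, or 38.5% beside 29.8% of all genes tested. Smox, which oxidises spermine back to spermidine, had 50.5, 56.9 and 51.1 CPM without and 77.6, 58.4 and 69.3 CPM with DGAT1i (log2 fold change 0.37, SE 0.09, edgeR adjusted p = 8.70e-04). Oaz1, which encodes antizyme 1, the protein that targets ornithine decarboxylase for degradation, had 124, 111 and 118 CPM without and 148, 128 and 148 CPM with it (0.27, adjusted p = 0.00122). In M0 it fell with DGAT1i from 160.4 to 133 CPM (-0.27, adjusted p = 3.15e-04).

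Atp13a2, the lysosomal polyamine exporter, fell with DGAT1i in IFNγ + LPS from 443 to 367 CPM (log2 fold change -0.27, adjusted p = 2.18e-05) and rose in M0 from 324 to 396 CPM (0.29, adjusted p = 5.07e-06, edgeR's quasi-likelihood test). Mtap was lower with DGAT1i in IFNγ + LPS (-0.44, adjusted p = 0.0166), a call lost without replicate 1 of IFNγ + LPS or without replicate 2 of IFNγ + LPS with DGAT1i. In M0, DGAT1i lowered Sms, spermine synthase, from 45.7 to 36.1 CPM (-0.34, adjusted p = 0.00141) and raised Paox from 10.8 to 15.7 CPM (0.53, adjusted p = 0.00324), the latter not by DESeq2. In the 13 genes of the list, 7 were called in M0, 3 higher and 4 lower, or 53.8% beside 24.4% of all genes tested.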

How the data were processed

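The authors deposited raw read counts per gene for the 12 libraries, unnormalized and not pooled. Per the labels the genome build was GRCm38. No aligner, counter or annotation release is named (not given in the sources used here). Library kits in the labels and in the study's methods differ, so strandedness is unknown. Groups came from the sample titles. Identifiers were matched to GENCODE M21 symbols without version (47224 of 47937; 39106 with it), and 25746 genes had 0 reads.

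Counts were filtered with filterByExpr (11760 genes kept), TMM-scaled and fitted with edgeR 4.0.16 (robust quasi-likelihood, 1 mean per group, all 12 libraries) in R 4.3.3. P-values were Benjamini-Hochberg adjusted over all genes tested, with a threshold of 0.05. The script was tested on simulated data. After scaling, 1 CPM was worth 4.28 to 7.58 reads. Intervals of log2 fold changes are 95% intervals of the fit, and the floor of 3 reads over a group covers counting error only. Within-library ratios were tested with an exact permutation test (scipy 1.17.1). Copies were sought with BLAST 2.17.0 among annotated transcripts.

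The members and lists were chosen with earlier results of these data known, and 2 genes of the set and 1 of the pathway lists are not reported here. Other genes were named by size: for each list and comparison, up to 4 called genes with the largest change and an average log2 CPM of at least 2; Azin1, Dhps and Eif5a were added after their values were seen, as were genes named for failing the filter. Alternatives were other scaling (RLE or library size), other filters, DESeq2 1.42.0, fewer libraries, a replicate block and leaving out single libraries.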

Additional observations from a re-analysis of the deposited data

Results flagged for a closer look

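The response to DGAT1i differed between IFNγ + LPS and M0, by the interaction test in edgeR, for 11 genes, of 7 members and 35 pathway genes tested, beside 18.5% of all genes. Values here are the log2 response in IFNγ + LPS minus that in M0. Among arginine transporters it was lower for Slc7a1 (-1.08, adjusted p = 1.95e-09), Slc7a7 (-1.06, adjusted p = 8.86e-05) and Slc3a2 (-0.30, adjusted p = 0.00296). Among genes of polyamine metabolism it was lower for Odc1 (-0.55, adjusted p = 1.56e-04), Atp13a2 (-0.56, adjusted p = 1.43e-08) and Azin1 (-0.23, adjusted p = 0.0218), which encodes the antizyme inhibitor. It was higher for Smox (0.50, adjusted p = 0.00341) and for the antizyme genes Oaz1 (0.54, adjusted p = 5.87e-06) and Oaz2 (0.57, adjusted p = 0.0250).

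Among genes of the nitric oxide list it was higher for Ddah2 (1.56, adjusted p = 0.00549) and lower for Pts (-0.61, adjusted p = 0.0147), which encodes an enzyme of tetrahydrobiopterin synthesis. The call for Ddah2 was lost without replicate 1 of IFNγ + LPS, the library with 1 read, where the difference was 1.13. The call for Pts was lost by DESeq2 and when replicate 3 of IFNγ + LPS with DGAT1i was left out. Azin1 lost its call in 5 alternative analyses and Oaz2 in 6, mostly with 1 library left out, and the other 7 genes kept theirs in each alternative run. In the same test all 4 neutrophil and precursor markers tested were higher, as were all 4 genes tested of the IL-4-type list, and of 8 macrophage markers 1 was higher and 4 were lower. The part of these genes in the differences was not tested.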

How the results depend on the processing

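With scaling by library size alone, in place of TMM, the log2 fold change with IFNγ + LPS against M0 became -0.34 for Odc1, -0.081 for Sat1 and -0.37 for Asl, and with both groups on DGAT1i it became -0.27 for Asl. With DGAT1i in M0 the number of members called was 0 under this scaling, 1 by DESeq2, and 1 to 2 with each library left out in turn. It was 1 without M0 replicate 3 and without replicate 1, 2 or 3 of M0 with DGAT1i. In the other comparisons the number of members and of pathway genes called stayed within 1.5 times in each alternative run. DESeq2 called 1927 of all genes with DGAT1i in M0 and 1469 for the difference of the responses, against 2869 and 2171. Deviations from the group mean correlated from -0.045 to 0.077 between same-numbered libraries of different groups, and from -0.071 to 0.047 between differently numbered ones. Between the groups other than M0, all same-numbered correlations were positive, at 0.031 to 0.077. This did not settle whether the numbers mark pairs, and they were not taken as pairs in the main fit. With the replicate number as a block, the members called remained 6 with IFNγ + LPS. They remained 4 and 2 with DGAT1i in IFNγ + LPS and M0. All genes called went from 3508 to 3568 with DGAT1i in IFNγ + LPS and from 2869 to 2959 in M0. Depth limits Ass1 in M0, at 9 to 11 reads per library.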
